A study of Homo sapiens with 4 samples.

Results

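The S phase cells of OVCAR5, a human ovarian carcinoma cell line, were the 617 of 6170 kept cells (10%) with the highest summed level of 10 genes of DNA replication. The score was the UMIs (unique molecular identifiers, each standing for 1 captured RNA molecule) of MCM3, MCM5, MCM6, PCNA, TYMS, CDC6, CLSPN, GINS2, RRM2 and DTL in each 1e6 gene UMIs of a cell (CPM). Members had at least 1714.7 CPM. They were compared with the 3085 cells whose score lay below the median of 844.66 CPM, called low-score cells, and the 2468 cells between the groups are called middle cells. Members were chosen by the measured values of these 10 genes, which are given as a description without a test.

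The line had been cultured with supernatant of tumor cells grown together with T cells, and droplet-based single-cell RNA sequencing measured all conditions in 1 pool. The dataset lists 2 gene-expression and 2 hashing libraries, and the library was not a term in the tests below. The 24 conditions were unstimulated cells, undiluted supernatant, and supernatant diluted 5, 25, 125 or 625 times, each for 2, 6, 12 or 24 h. Antibodies carrying oligonucleotide tags (hashtags) marked each culture with a pair of tags, and 24 tag pairs were in use, each 1 culture. Which condition each pair marks is not given here, so no value below carries a dose or a time, no pair was compared with another as a group, and the pairs are not replicates of each other.

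Cells copy their DNA once in S phase. In G1, MCM helicase rings are loaded onto replication origins with the help of ORC, CDC6 and CDT1, and in S phase polymerases, the sliding clamp PCNA and nucleotide synthesis enzymes carry out the copying. The E2F transcription factors, released from the retinoblastoma protein when cyclin D and cyclin E kinases are active, drive many of these genes, while mitotic genes rise later, in G2. Interferon gamma, a cytokine of T cells, is known to slow proliferation of many epithelial cells and to induce chemokines and antigen presentation, and TNF acts through the transcription factor NF-kB.

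A tag pair was found for 552 of the members and for 2536 low-score cells. Members had a median of 13104 UMIs and 3712 genes per cell, and low-score cells 13033 UMIs and 3660 genes. Within the 21 tag pairs tested below, the ratio of the median UMIs of members to those of low-score cells ran from 0.699 in HTO9/HTO10 to 1.25 in HTO2/HTO9. Members were the shallower class in 11 pairs, among them all 9 tested pairs that carry HTO10. The median mitochondrial share was 9.80% in members and 11.05% in low-score cells. The 10660 barcodes were all distinct, and kept cells per tag pair ran from 132 to 263, with 1769925 to 3744396 gene UMIs per pair. Of 10 T cell markers, 8 had 0 UMIs in the members, and TRBC2 and CD8A had 1 UMI each. KRT18, an epithelial keratin, was at 1586 CPM in the members and 1503 CPM in low-score cells.

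The score placed no gap at the threshold. The 20 cells just inside had scores from 1714.7 to 1727.6 CPM and the 20 just outside from 1706.1 to 1714.4 CPM, and 545 cells lay within 10% of the threshold. Members carried a median of 27 score UMIs, the lowest 4, and low-score cells a median of 7. The members are therefore a range of the score and not a separate population.

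Promoters of score genes are shown because E2F is known to act on many of these genes through sites near their starts. The sequences are RefSeq's, 300 bases around the gene start, written 5′ to 3′ along the gene. Capitals mark matches on either strand to TTTCCCGC, TTTCGCGC, TTTGCCGC or TTTGGCGC, letters known for E2F binding, in the first 3 promoters. In the promoter of PLK1, a mitotic kinase gene, they mark TTTGAA, the core of the CHR element of G2/M genes. In MCM6 2 overlapping matches on opposite strands form each capital run.
MCM6 promoter, GRCh38.p14 chr2:135876394-135876693, minus strand: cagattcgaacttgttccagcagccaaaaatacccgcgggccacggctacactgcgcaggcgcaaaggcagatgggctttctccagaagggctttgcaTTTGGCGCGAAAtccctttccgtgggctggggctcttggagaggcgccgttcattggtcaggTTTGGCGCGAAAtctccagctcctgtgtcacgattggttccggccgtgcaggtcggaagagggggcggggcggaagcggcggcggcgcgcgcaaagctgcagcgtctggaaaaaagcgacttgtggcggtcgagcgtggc
PCNA promoter, GRCh38.p14 chr20:5126573-5126872, minus strand: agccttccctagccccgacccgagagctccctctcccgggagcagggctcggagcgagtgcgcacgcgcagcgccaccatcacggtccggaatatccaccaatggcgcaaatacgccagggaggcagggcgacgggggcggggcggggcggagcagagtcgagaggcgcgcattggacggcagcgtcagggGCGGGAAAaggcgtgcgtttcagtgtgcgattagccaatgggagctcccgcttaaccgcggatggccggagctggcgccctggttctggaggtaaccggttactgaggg
CDC6 promoter, GRCh38.p14 chr17:40287629-40287928, plus strand: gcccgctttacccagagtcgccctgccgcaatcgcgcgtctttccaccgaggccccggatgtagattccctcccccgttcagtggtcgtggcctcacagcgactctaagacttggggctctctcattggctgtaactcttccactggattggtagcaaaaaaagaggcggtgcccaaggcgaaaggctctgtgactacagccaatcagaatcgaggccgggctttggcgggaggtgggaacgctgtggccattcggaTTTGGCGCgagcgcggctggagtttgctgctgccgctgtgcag
PLK1 promoter, GRCh38.p14 chr16:23678639-23678938, plus strand: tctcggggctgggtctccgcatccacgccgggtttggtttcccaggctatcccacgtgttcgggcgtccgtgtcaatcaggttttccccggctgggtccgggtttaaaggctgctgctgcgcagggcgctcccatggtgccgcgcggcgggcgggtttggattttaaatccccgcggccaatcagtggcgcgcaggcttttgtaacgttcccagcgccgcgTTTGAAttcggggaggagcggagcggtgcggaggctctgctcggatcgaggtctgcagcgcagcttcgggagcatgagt
A promoter was found for 9 of the 10 score genes, and 8 of the 9 held an E2F match, against 3.33% of all 27305 promoters. The matches were in 6 of 16 promoters of the licensing list, 8 of 18 of the DNA repair list and 3 of 42 of the G2/M list. TTTGAA was in 29 of 42 promoters of the G2/M list, in 0 of 9 of the score genes and in 15.4% of all promoters. A match is a description of letters in this window.

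Each score gene was higher in the members of all 21 pairs that entered the test. CDC6, which loads the MCM rings, had a median over pairs of 218 CPM (166 to 294) in members and of 30.7 CPM (18.6 to 41.4) in low-score cells. MCM5, a ring subunit, had 103 CPM (73.3 to 151) against 16.2 CPM (11.3 to 30.8). PCNA had 270 CPM (198 to 311) against 48.0 CPM (32.9 to 68.9). TYMS, which makes thymidylate, had 378 CPM (294 to 459) against 179 CPM (127 to 205), the smallest ratio of these 4 genes. The groups did not overlap for any of these 4 genes, which the choice of members fixes. After thinning each cell to 3000 UMIs, CDC6 had a UMI in 50% of 606 members and 8.43% of 3037 low-score cells, and before thinning in 91.6% and 29.3%. TYMS had a UMI in 66.7% of members and 34.5% of low-score cells after thinning.

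The score genes also went together when only some of them chose the members, which is given as a description since all of them belong to the rule. When members were chosen by MCM3, MCM5, MCM6, CDC6 and GINS2 alone, DTL, an adaptor of the ubiquitin ligase that acts on PCNA-bound proteins, was higher by a log2 difference of 2.04 over 22 pairs, PCNA by 1.80, RRM2, a ribonucleotide reductase subunit, by 0.45 and TYMS by 0.34. When PCNA, TYMS, CLSPN, RRM2 and DTL chose the members, MCM6 was higher by 1.71 and GINS2 by 1.12.

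At this threshold every culture held at least 1 S phase cell, but at unequal shares. With the top 5% of the score the lowest share of a culture was 0%. It was also 0% when cells needed 2000 genes and at most 10% mitochondrial UMIs. The share of kept cells had a median of 11.7% over the 24 pairs. The lowest share was 1 of 232 cells in HTO5/HTO8 (0.431%, exact binomial 95% interval 0.0109 to 2.38%), and HTO3/HTO9 had 4 of 244 (1.64%, 0.448 to 4.14%). The next pairs were HTO8/HTO10 with 13 of 253 (5.14%), HTO6/HTO8 with 9 of 159 (5.66%) and HTO9/HTO10 with 14 of 233 (6.01%). The highest share was 48 of 256 cells in HTO3/HTO10 (18.8%, 14.2 to 24.1%), followed by HTO4/HTO10 with 16.2% and HTO5/HTO10 with 15.6%. The share over all tagged cells was 552 of 5159 (10.7%), and the intervals of 5 pairs lay below it and those of 3 pairs above it. The interval of each pair overlapped those of its neighbours in this order, and differences between neighbours were not tested.

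**Figure D1:**
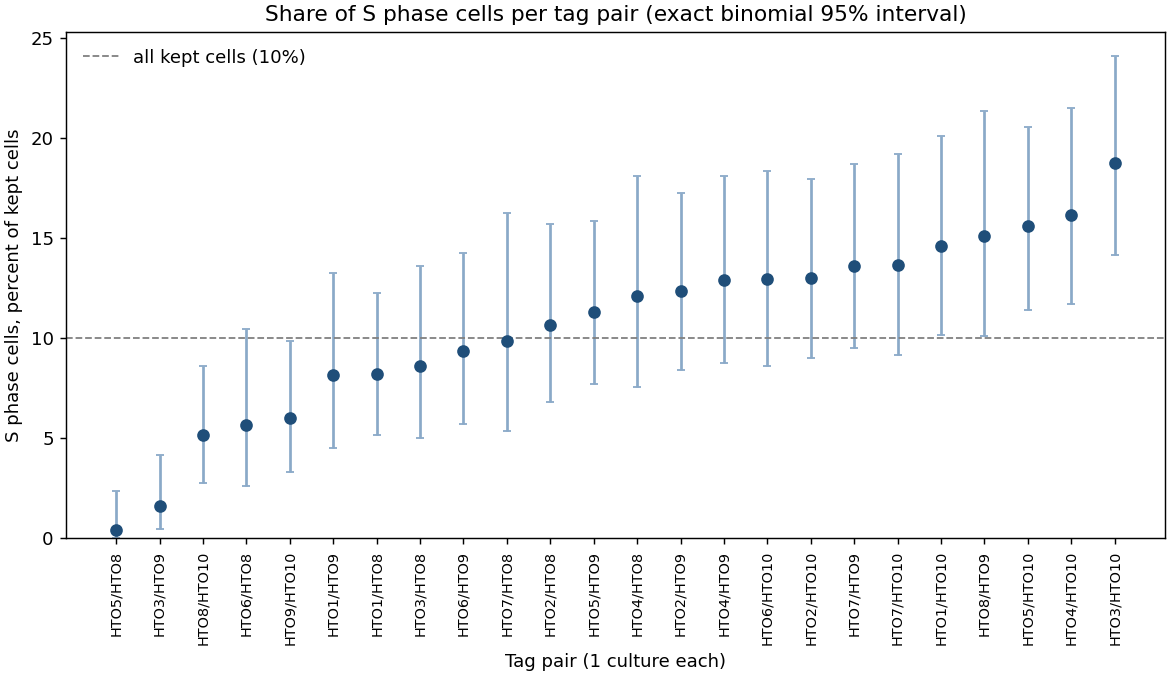
Share of S phase cells among kept cells for the 24 tag pairs, in percent, ordered by share. Points are shares and bars exact binomial 95% intervals. The dashed line is the share over all kept cells, with or without a tag pair (10%), and not the 10.7% of tagged cells. HTO5/HTO8 and HTO3/HTO9 lie lowest, at 0.431% and 1.64%, and HTO3/HTO10 highest, at 18.8%.

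Among the pairs with few S phase cells, HTO5/HTO8, HTO3/HTO9 and HTO6/HTO8 had high levels of interferon gamma response genes. In all kept cells this list was at 18184 CPM in HTO3/HTO9, at 15248 CPM in HTO5/HTO8, at 13824 CPM in HTO4/HTO9 and at 11707 CPM in HTO6/HTO8, the highest of the 24 pairs. HTO4/HTO9 had a share of 12.9%, while HTO8/HTO10 and HTO9/HTO10, with shares of 5.14% and 6.01%, were not among these pairs. A high list level and a low share therefore did not go together in every pair. HTO3/HTO9 and HTO5/HTO8 also had the highest median mitochondrial shares, 13.8% and 12.8%, and the lowest median depths, 9389 and 10711 UMIs per cell. Their part in the result was not tested.

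Relations of the share were computed with list levels in the middle cells, log2(summed CPM + 10). The choice of members did not use the genes of these lists, but the same score sets which cells are middle cells. Middle cells were few in HTO3/HTO9 and HTO5/HTO8, where 90.2% and 88.4% of kept cells were low-score cells. The interferon gamma levels had a wide gap, with HTO1/HTO10, HTO2/HTO9, HTO4/HTO8 and HTO7/HTO10 below it, so the relation was taken over the other 20 pairs. There r was -0.63 (adjusted permutation p 0.0135 over 6 relations) and rho was -0.65 (adjusted permutation p 0.0153). Without HTO3/HTO9 and HTO6/HTO10, the pairs farthest from the median level, r was -0.56. With the interferon gamma level of low-score cells in place of middle cells, r was -0.65 (adjusted permutation p 0.00618) and rho -0.60 (adjusted permutation p 0.0328). In that form r was -0.45 without HTO3/HTO9 and HTO5/HTO8, the pairs of lowest share. The share also went with the level of G2/M genes over 24 pairs (r 0.56, adjusted permutation p 0.0135, rho 0.49, adjusted permutation p 0.0341, r 0.53 without HTO3/HTO9 and HTO4/HTO9). With the G2/M level of low-score cells in place of middle cells, r was 0.62 (adjusted permutation p 0.00618) and rho 0.42 (adjusted permutation p 0.0848), and r was 0.22 without HTO3/HTO9 and HTO5/HTO8, so that form of the relation rests on these pairs.

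With the NF-kB level the share had r -0.46 (adjusted permutation p 0.0353) and rho -0.41 (adjusted permutation p 0.0736), and r was -0.45 without the 2 farthest pairs. With the median mitochondrial share it had r -0.51 (adjusted permutation p 0.0221) and rho -0.29 (adjusted permutation p 0.203), and r was -0.13 without HTO3/HTO9 and HTO5/HTO8, so that relation rests on these pairs. The tests were two-sided with 100000 resamples and treat the pairs as independent, although the cultures share doses and times by design.

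Within cultures, S phase cells differed from low-score cells in 1761 of 6960 tested genes (25.3%) at an adjusted p under 0.05, of which 888 were higher (12.8%) and 873 lower (12.5%). The test was edgeR's quasi-likelihood test on UMI sums per class and tag pair, with the pair as a block and the score genes left out. It used 538 members and 2009 low-score cells of 21 pairs, since HTO5/HTO8, HTO3/HTO9 and HTO6/HTO8 had fewer than 10 members. The median log2 difference of all tested genes was -0.00. Differences of 2-fold or more were seen in 54 genes that were higher and 53 that were lower. With every pair of at least 1 cell per class, 1771 genes were called in 24 pairs.

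Genes of replication licensing and initiation were higher together, 13 of 15 tested, with 1 lower and a median of 0.81. MCM4, a ring subunit, had a median over pairs of 370 CPM (270 to 469) in members and 111 CPM (80.2 to 135) in low-score cells, so the groups did not overlap, and its log2 difference was 1.76 (SE 0.050, adjusted p 6.1e-47). MCM10, which activates the helicase, was higher by 1.98 (SE 0.094), MCM2 by 1.62 and MCM7 by 0.80, each in 21 of 21 pairs. ORC6, of the origin recognition complex, was higher by 0.81, in 20 of 21 pairs. DBF4, the partner of the CDC7 kinase, was the member that was lower, by a log2 difference of -0.63, and is named after its value was seen. Without the low-score cells of high G2/M level its difference was -0.11 and did not pass (edgeR adjusted p 0.548).

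Genes of the replication fork were higher in 20 of 22 tested members, with a median of 0.79 and none lower. FEN1, the flap endonuclease of lagging-strand synthesis, had 206 CPM (158 to 237) in members and 98.1 CPM (70.8 to 122) in low-score cells, a log2 difference of 1.03 (SE 0.059, adjusted p 1.05e-26). CHAF1B, a subunit of the histone chaperone CAF-1, differed by 1.76 and PRIM1, the catalytic primase subunit, by 1.47, both in 21 of 21 pairs. RPA3, a single-strand binding subunit, differed by 0.21, lost with the stricter cell filter, and POLD2 by 0.13, which did not pass (adjusted p 0.0654).

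Nucleotide synthesis genes were higher in 9 of 13 tested members, with 1 lower and a median of 0.44. DUT, which removes dUTP, had 352 CPM (260 to 458) in members and 158 CPM (99.0 to 224) in low-score cells, a log2 difference of 1.09 (SE 0.054, adjusted p 9.45e-31). DTYMK, thymidylate kinase, was lower by a log2 difference of -0.19, in 18 of 21 pairs, and its call was lost with 4 of the alternatives. NME1, a nucleoside diphosphate kinase, was near equal at medians of 725 and 726 CPM (log2 difference 0.01, adjusted p 0.813).

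Genes of DNA repair and of copying chromatin marks were higher in 17 of 18 tested members, with a median of 1.03 and none lower. UNG, which cuts uracil from DNA, had 53.9 CPM (30.5 to 88.2) in members and 10.9 CPM (5.76 to 19.2) in low-score cells, a log2 difference of 2.30 (SE 0.12, adjusted p 4.38e-30). MSH6 of mismatch repair differed by 1.71 and HELLS, a chromatin remodeler, by 1.68. DNMT1, the maintenance DNA methyltransferase, differed by 0.35 and USP1, a deubiquitinase, by 0.68.

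Regulators of the G1/S transition were higher in 13 of 16 tested members, with 1 lower and a median of 0.58. CCNE2, cyclin E2, had a median of 32.7 CPM (6.30 to 74.0) in members and of 2.58 CPM (0 to 7.09) in low-score cells, and was higher in 21 of 21 pairs. Its log2 difference was 3.68 (SE 0.18, adjusted p 1.56e-30). E2F1 differed by 1.91. CCND1, cyclin D1, was lower in all 21 pairs, with 468 CPM (292 to 665) against 620 CPM (435 to 783) and a log2 difference of -0.38 (SE 0.037, adjusted p 9.84e-15), although the ranges overlapped. CDK4 differed by 0.15, a call lost with 9 of the alternatives.

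Histone genes and their processing factors were higher in 10 of 12 tested members, with 1 lower and a median of 1.42. HIST1H4C, a replication-dependent histone H4 gene, had 1010.1 CPM (661 to 1301) in members and 344 CPM (206 to 642) in low-score cells, a log2 difference of 1.44 (SE 0.052, adjusted p 1.49e-39). The linker histone genes HIST1H1D and HIST1H1B differed by 2.02 and 1.95. H2AFZ, a variant histone expressed through the cycle, was near equal (log2 difference 0.04, adjusted p 0.248), and H2AFX was lower by -0.29, a call lost with 4 of the alternatives. Most replication-dependent histone RNAs lack poly(A) tails, so a 3′ assay that primes on them captures only part, and reads of near-identical histone genes can be divided between copies.

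Other genes among the most different were FAM111B, a protease gene (log2 difference 3.25, SE 0.12, 69.5 against 7.12 CPM), WDR76 (2.30) and ATAD2, a chromatin-binding ATPase (1.77), each higher in 21 of 21 pairs. Ribosome biogenesis genes were higher in 6 of 13 tested members, with none lower and a median of 0.13. NPM1, nucleophosmin, had 2943 CPM (2012 to 3716) against 2442 CPM (1842 to 2837), a log2 difference of 0.25 (SE 0.026, adjusted p 1.71e-13), and NCL, nucleolin, differed by 0.21.

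Genes of G2 and mitosis were lower in S phase cells, in 49 of 50 tested members, with a median of -0.85. PLK1 had 36.5 CPM (18.9 to 64.0) in members and 162 CPM (83.2 to 241) in low-score cells, with no overlap, and a log2 difference of -2.04 (SE 0.085, adjusted p 1.38e-35). CCNB1, cyclin B1, had 95.4 CPM (53.1 to 180) against 372 CPM (210 to 564), a log2 difference of -1.84. AURKA, a spindle kinase gene, differed by -1.86, CENPE, a kinetochore motor, by -1.88, and TOP2A, topoisomerase II alpha, by -1.08. PIF1, a DNA helicase gene outside this list, differed by -3.76, and members had 0 UMIs of it in 5 pairs. Of the kept cells, the 25% with the highest G2/M level held 11 of 617 members (1.78%, exact binomial 95% interval 0.893 to 3.17%), 34.7% of low-score cells and 18.7% of middle cells. Without these cells of high G2/M level among the low-score cells, 28 of 47 tested members were lower and 1 higher, with a median of -0.30. The level of this same list chose the cells left out, from the low-score class only. The smaller difference is therefore partly fixed by that choice and is given as a description.

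**Figure D2:**
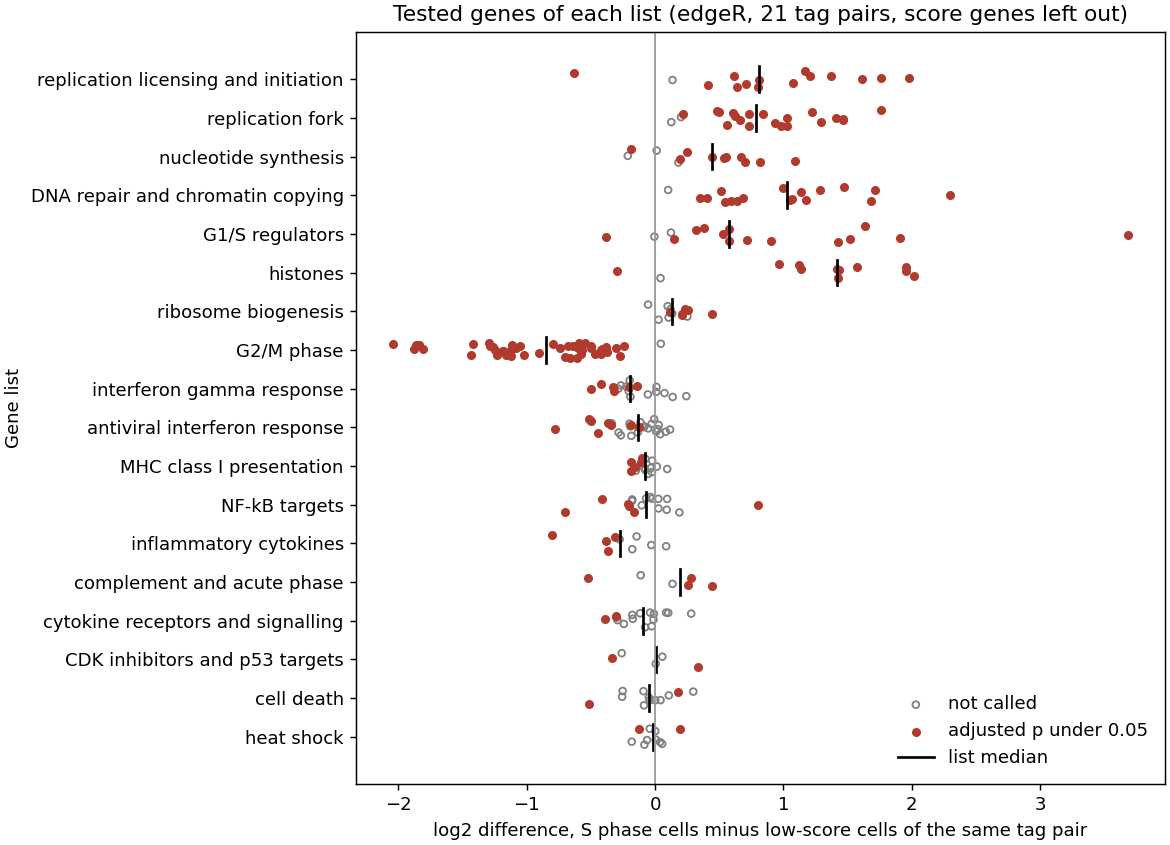
Log2 difference of each tested list gene between S phase cells and low-score cells of the same tag pair (edgeR, 21 pairs), filled where the adjusted p is under 0.05, with the list median as a bar. Replication, repair and histone lists lie to the right, the G2/M list to the left (median -0.85), and the cytokine response lists near 0.

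The level of interferon gamma response genes varied far more between cultures than between S phase and low-score cells of 1 culture. The summed level ran from 356 CPM in HTO1/HTO10 to 13166 CPM in HTO4/HTO9 in the members, a ratio of 37.0, and from 379 to 14667 CPM in low-score cells, a ratio of 38.7. Within pairs the log2 difference of the summed level had a median of -0.20, from -0.95 in HTO1/HTO10 to 0.67 in HTO1/HTO9, and was lower in 17 of 21 pairs. At the median this was a ratio of 0.873, while all tagged members together against all tagged low-score cells, whatever the pair, gave 3772 against 6531 CPM, a ratio of 0.577. Both values are descriptions, and the second is set also by how many cells each pair gave to each class.

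Of 18 tested members of the interferon gamma list, 6 were lower and none higher, with a median of -0.20. CXCL10 (ENSG00000169245, GRCh38 chromosome 4, 76021117 to 76023497), a chemokine that attracts T cells, had 94.0 CPM (13.1 to 3135) in members and 153 CPM (14.9 to 3207) in low-score cells. It was lower in 17 of 21 pairs, with a log2 difference of -0.50 (SE 0.10, adjusted p 5.04e-05). IDO1, which degrades tryptophan, had 44.3 CPM (5.15 to 1864) against 121 CPM (9.93 to 2275) and a log2 difference of -0.42 (SE 0.084, adjusted p 4.72e-05), also in 17 of 21 pairs. Here and below, medians over unlike cultures are taken in each class apart. Their ratio is not the within-pair difference of the test and can be larger. WARS, a tryptophanyl-tRNA synthetase gene, differed by -0.14. The transcription factor gene IRF1 was near equal, with 913 against 958 CPM (log2 difference 0.01, adjusted p 0.874). The call of CXCL10 was lost when PCNA, TYMS, CLSPN, RRM2 and DTL alone chose the members, and without the pair as a block 0 of the 18 genes passed.

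**Figure D3:**
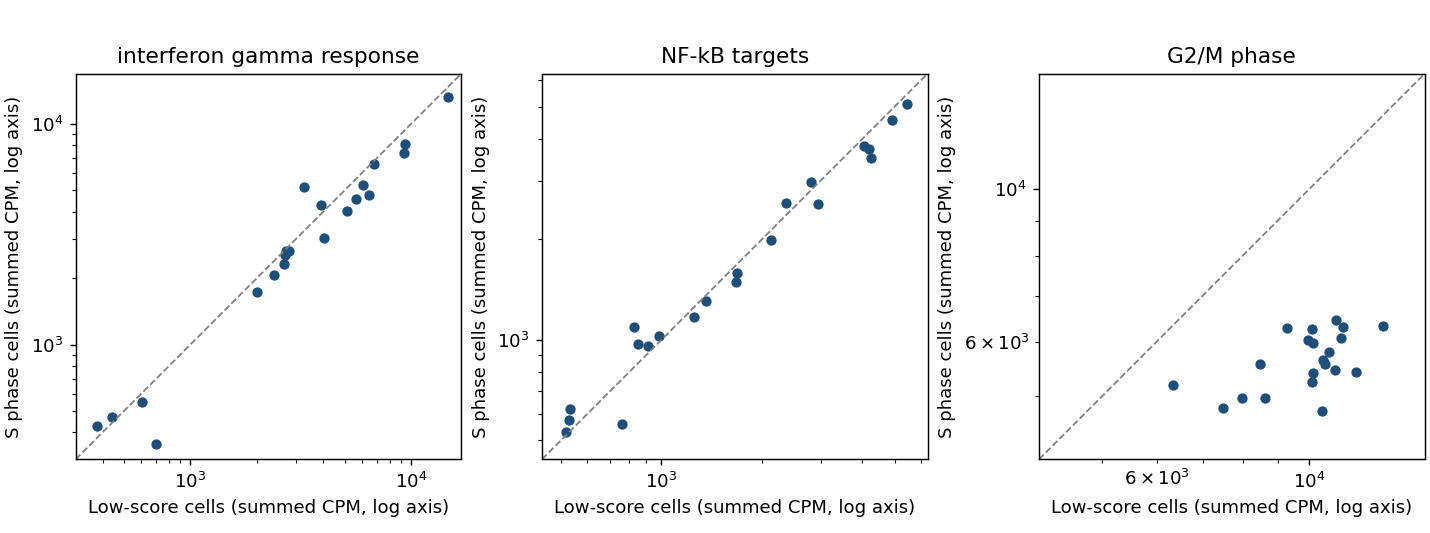
Summed CPM of 3 lists in S phase cells against low-score cells of the same tag pair, 1 point for each of 21 pairs, log axes, with the line of equality dashed. Interferon gamma levels spread from 356 to 13166 CPM in S phase cells and follow the line, while all 21 G2/M points lie below it.

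Antiviral interferon-stimulated genes were lower in 8 of 27 tested members and higher in 0, with a median of -0.13, and the summed level was lower in 15 of 21 pairs (median difference -0.10). IFIT1 was at 4.25 CPM (0 to 57.3) in members and 19.9 CPM (2.61 to 90.6) in low-score cells, a log2 difference of -0.78 (SE 0.18, adjusted p 0.000635). Members had 0 UMIs of IFIT1 in 5 of 21 pairs. OASL differed by -0.51. ISG15, a ubiquitin-like modifier, had 372 against 367 CPM, a log2 difference of -0.09 that did not pass (adjusted p 0.298). MHC class I genes were lower in 5 of 15 tested members, with a median of -0.08: HLA-C had 386 CPM (202 to 912) against 460 CPM (242 to 888), a log2 difference of -0.19 (SE 0.038, adjusted p 6.21e-05), and B2M was near equal (-0.02, adjusted p 0.56). CD74 and CIITA, of the MHC class II list, were the 2 tested and neither passed.

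NF-kB target genes were lower in 5 of 17 tested members and higher in 1, with a median of -0.07, and the summed level was lower in 12 of 21 pairs. CD83, an immune surface glycoprotein gene, was the gene that was higher, with 36.5 CPM (9.12 to 87.8) in members and 13.1 CPM (4.79 to 43.4) in low-score cells, a log2 difference of 0.80 (SE 0.12, adjusted p 2.2e-07), in 20 of 21 pairs. BCL3, an NF-kB cofactor, had 15.4 against 31.4 CPM and differed by -0.70 (SE 0.16, adjusted p 0.000279). NFKBIA, the inhibitor of NF-kB, did not pass (-0.10, adjusted p 0.184), nor did SOD2 (-0.07). The calls of CD83 and BCL3 were lost without the pair as a block.

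Inflammatory cytokine genes were lower in 4 of 9 tested members and higher in 0, with a median of -0.28, all 4 being neutrophil-attracting chemokines. CXCL1 had 8.98 CPM (0 to 393) in members and 29.3 CPM (2.48 to 438) in low-score cells, lower in 17 of 21 pairs, with a log2 difference of -0.80 (SE 0.11, adjusted p 8.22e-09). Members had 0 UMIs of CXCL1 in 3 pairs. CXCL2 differed by -0.38 and CXCL8 by -0.37, and IL32 did not pass (-0.03). Acute phase and complement genes were higher in 3 of 6 tested members, with 1 lower and a median of 0.19. The direction of this list turned with other settings: the median was -0.13 when MCM3, MCM5, MCM6, CDC6 and GINS2 alone chose the members and -0.07 with the top 20% of the score, and without the pair as a block 0 were higher and 1 lower. PTX3, a pentraxin, had 195 CPM (73.9 to 643) against 128 CPM (52.6 to 704), a log2 difference of 0.28 (SE 0.061, adjusted p 0.000223), and SAA2, serum amyloid A2, differed by 0.45.

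These counts depended on which genes chose the members and on the filters, and so did the calls over all tested genes. In the main test 873 of 6960 were lower and 888 higher. The PCNA, TYMS, CLSPN, RRM2 and DTL score gave 570 lower and 654 higher of 6483. The stricter cell filter gave 290 lower and 273 higher of 4803. Lower were 552 of 6211 after thinning, 398 of 6066 with the top 5% and 822 of 6496 with ranking within pairs. Lower were 628 of 5618 without low-score cells of high G2/M level and 899 of 6881 with the other 5 score genes. With PCNA, TYMS, CLSPN, RRM2 and DTL alone, 6 of 17 tested interferon gamma genes were lower and 1 higher (median -0.16), 2 of 27 antiviral genes lower, 0 of 14 MHC class I genes lower and 2 higher, 3 of 17 NF-kB targets lower and 2 higher, and 1 of 9 cytokine genes lower and 1 higher. With the stricter cell filter of 2000 genes and 10% mitochondrial UMIs, which left 10 pairs, 2 of 9 interferon gamma genes were lower, 0 of 12 antiviral genes lower and 1 higher (median 0.10), 0 of 13 MHC class I genes lower and 1 of 13 NF-kB targets lower. After thinning to 3000 UMIs 1 of 27 antiviral genes was lower, and with the top 5% of the score 0 of 13 MHC class I genes. Other settings raised some counts. With cells ranked within each pair, 13 of 21 interferon gamma genes (median -0.33) and 7 of 14 MHC class I genes were lower. Without low-score cells of high G2/M level these were 9 of 16 (median -0.27) and 8 of 13. With MCM3, MCM5, MCM6, CDC6 and GINS2 alone, 11 of 28 antiviral genes were lower and 1 higher. That score also gave 8 of 14 MHC class I genes lower, and 9 of 17 NF-kB targets lower and 1 higher. The part of the mitochondrial share, which differed between the classes, was not tested apart from depth and from the number of cells. Without the pair as a block, 0 genes of these 5 lists passed. Of single genes, IDO1 lost its call with 1 alternative, CXCL1 with 2, IFIT1 with 3, HLA-C, PTX3 and SAA2 with 4, WARS and CXCL2 with 5, and OASL and CXCL8 with 6. Close paralogs (HLA class I genes, CXCL1 to CXCL3, SAA1 and SAA2) may have shared reads in counting, so single members are uncertain.

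The remaining lists had calls near or under the shares of all tested genes (12.8% higher and 12.5% lower) or too few tested members to read. Receptors and signalling genes were lower in 2 of 16 tested members, with a median of -0.10. TNFRSF1A, a TNF receptor, had 92.6 CPM (45.7 to 132) against 120 CPM (85.3 to 146), a log2 difference of -0.39 (SE 0.067, adjusted p 2.54e-06), and RELA, an NF-kB subunit, differed by -0.31. Of 5 tested CDK inhibitors and p53 targets, PLK2 was higher (0.33) and BTG1 lower (-0.33). Of 12 tested cell death genes, CASP4 was higher (0.18) and TNFSF10, the death ligand TRAIL, lower (-0.51). Among these, CASP4 lost its call with 12 alternatives, RELA with 4, PLK2, BTG1 and TNFSF10 with 3, and TNFRSF1A with 1. Of 10 heat shock genes, HSPD1 was higher (0.19) and HSP90AA1 lower (-0.13), the latter lost with 2 alternatives. CLDN4, a tight junction claudin, was lower in 21 of 21 pairs, with 49.9 CPM (0 to 88.6) against 105 CPM (55.5 to 180) and a log2 difference of -1.16 (SE 0.088, adjusted p 1.37e-19), while the keratins KRT8 and KRT18 did not pass.

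**Figure D4:**
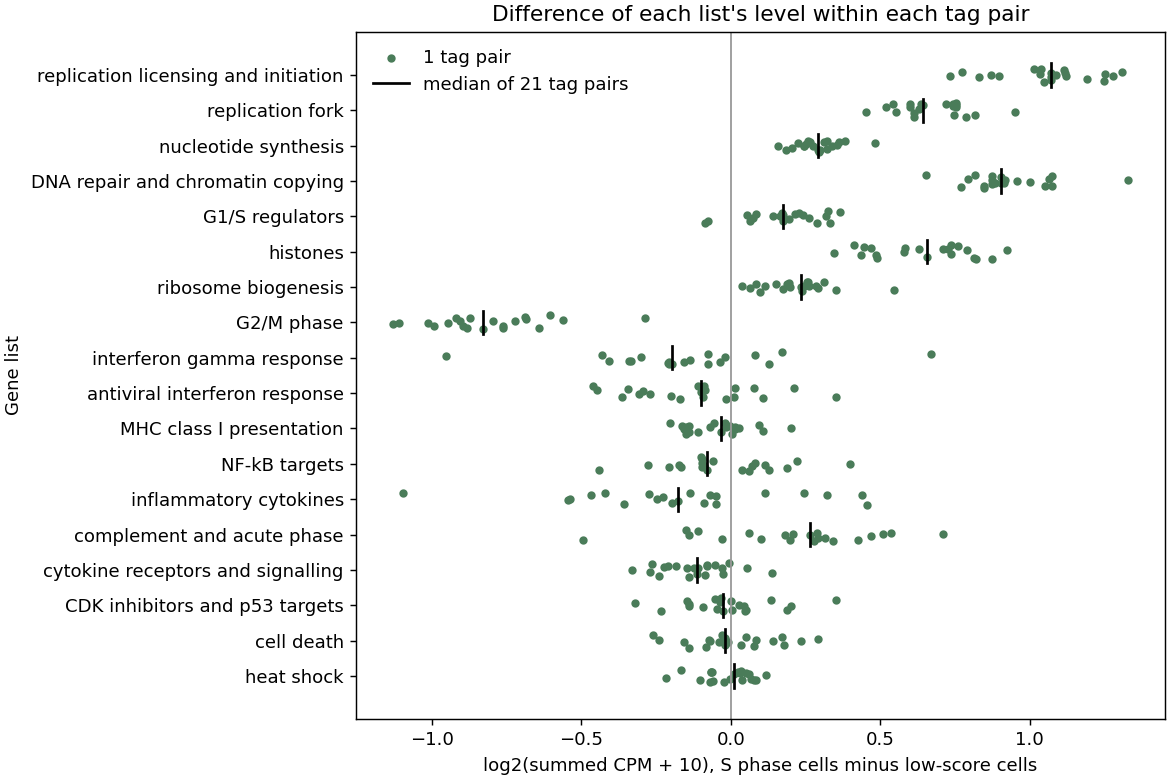
Difference of each list's level, log2(summed CPM + 10), between S phase cells and low-score cells within each of 21 tag pairs, with the median as a bar. The licensing list lies above 0 in 21 pairs (median 1.07) and the G2/M list below 0 in 21 pairs (median -0.83), while cytokine response lists lie on both sides of 0.

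Over the members of all cultures together, the interferon gamma level per cell had a 5th percentile of 268 CPM and a 95th of 11404 CPM around a median of 2773 CPM, against a median licensing level of 1294 CPM with percentiles of 713 and 2045 CPM. These spreads include the differences between cultures. Whether the cytokine differences went with the strength of the response was asked across 21 pairs. For interferon gamma, over the 17 pairs above the gap, the within-pair difference had r -0.17 with the level of the middle cells (adjusted permutation p 0.508, rho -0.23, adjusted permutation p 0.379, r -0.19 without the 2 farthest pairs). For NF-kB, r was -0.40 (adjusted permutation p 0.0814) and rho -0.53 (adjusted permutation p 0.0341), with r -0.40 without HTO8/HTO10 and HTO2/HTO10.

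With cells ranked by score within each pair and divided into 10 equal bins, all 24 pairs could be used. The licensing level went from a median of -0.76 (log2 relative to the pair's own level) in bin 1 to 0.71 in bin 10, and the bin was above the pair's level in 0 and 24 of 24 pairs. The G2/M level was highest in bin 3 (0.26), above the pair's level in 22 pairs, and lowest in bin 10 (-0.56), above it in 2 pairs. Bin 1 was at 0.04. Single pairs ran from -2.11 to 0.29 in bin 1 and from -0.80 to 0.39 in bin 10, so not every pair followed the median. The interferon gamma level was 0.17 in bin 1, above the pair's level in 21 pairs, and -0.12 in bin 10, above it in 5 pairs, with most of the change between bins 1 and 7 (-0.12). Bin 1 had a median of 10992 UMIs per cell and bin 10 a median of 12812 UMIs, and the part of depth in these values was not tested.

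**Figure D5:**
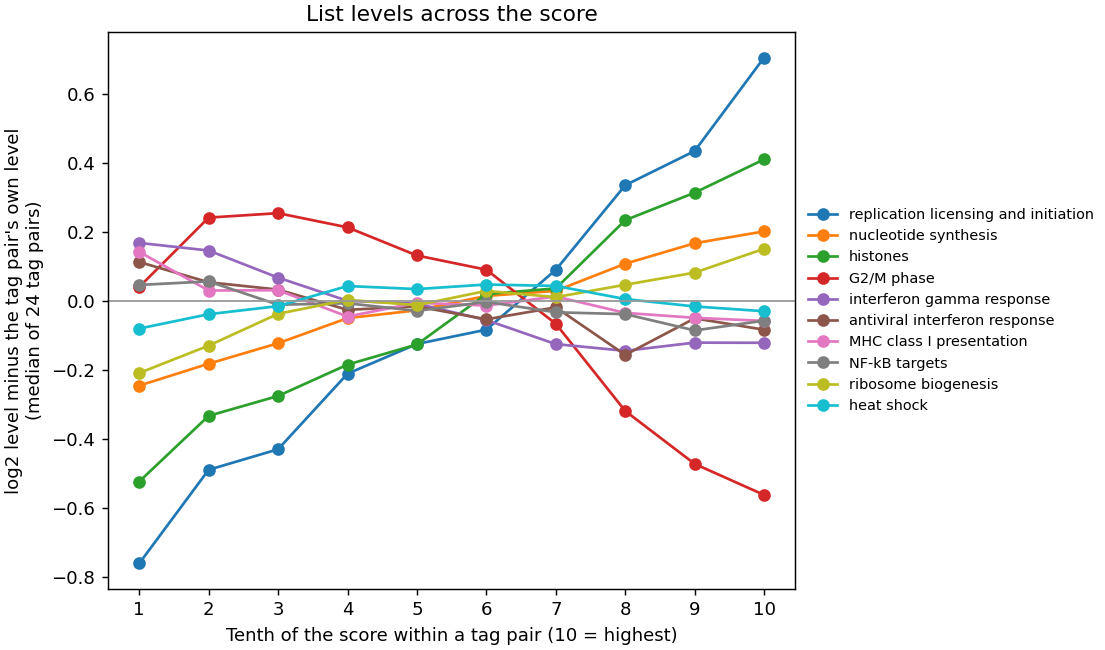
Median over 24 tag pairs of list levels in 10 equal bins of the score within each pair, as log2 relative to the pair's own level. Licensing goes from -0.76 to 0.71, G2/M genes peak at bin 3 and reach -0.56 in bin 10, and the interferon gamma list goes from 0.17 to -0.12.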

How the data were processed

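UMI counts per gene and barcode were deposited by the authors in 1 matrix, and the program was Cell Ranger 5.0.1 per the file headers. Cell Ranger 2.1.1 and GRCh38 stand in the submitters' processing notes. Annotation release and cell calling are not given in the sources consulted. Cells needed 1000 or more genes and no more than 20% mitochondrial UMIs. Leaving out 238 with KRT81 at 500 CPM or more left 6170 cells. A cell had a tag pair where its second tag count was at least 3 times the next one. No doublet caller was run, and doublets of different pairs tend to lose that margin.

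Counts were summed per tag pair and class and tested with edgeR 4.0.16 in R 4.3.3 (quasi-likelihood, TMM factors, low counts filtered, tag pair as a block, Benjamini-Hochberg adjustment, threshold 0.05), checked on simulated data, with DESeq2 1.42.0 as an alternative. Standard errors were derived from the fitted difference and its F value. Levels of lists are log2(summed CPM + 10). The tests ask whether a difference recurs over unlike cultures, 1 culture for each condition, and binomial intervals cover counting error only. GEO's labels put no sample in a group.

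The members, the lists and the tests were chosen with earlier results of these data known. Named genes are the 10 score genes, for each list the 3 tested members with the highest mean and the 2 called members with the largest difference, and the 15 higher and 10 lower called genes with the largest differences at a mean of at least 20 CPM, except for some genes that are not reported here. Gene positions came from GENCODE 29. Alternatives changed the score, the classes, cell filters, tag margin, the normalization, the tool and the pseudocount. The alternative with pairs of at least 1 cell per class was added after the data were seen.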

Additional observations from a re-analysis of the deposited data

Results flagged for a closer look

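Signals outside the comparison were seen in 3 places. The row of the far-red reporter Katushka held 347 UMIs in kept cells, above the 3 counts that a count of 0 allows, with 2.80 CPM in S phase cells (exact Poisson 95% interval 1.77 to 4.20) and 4.51 CPM in low-score cells (3.90 to 5.18). Among the 238 cells left out for high KRT81, 29 reached the score threshold (12.2%, exact binomial 95% interval 8.31 to 17.0%), at a median of 18553 UMIs per cell. Among the 1011 kept cells without a tag pair, 65 reached it (6.43%, 5.00 to 8.12%), at a median of 16645 UMIs.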

How the results depend on the processing

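The count of 1761 called genes was 874 with the top 5% of the score, 1074 after thinning to 3000 UMIs and 563 with the stricter cell filter (2000 genes, 10% mitochondrial), where 10 pairs were fitted. The other settings gave 1185 to 2241 genes. Without the replicate block, the tag pair, which the labels do not number, 1274 were called. With no filter on low counts 2117 of 21740 genes were called, of which 26.7% were higher, against 50.4% of the 1761. Leaving out HTO3/HTO9 was not run, as that pair was not in the fit. Of 285 list differences under alternatives, 270 moved by less than the spread over pairs. Against all other cells, licensing was at 0.74, fork at 0.49, nucleotide synthesis at 0.20, DNA repair at 0.65 and histones at 0.41. After thinning, licensing was at 0.88, DNA repair at 0.73 and the G2/M list at -0.61. With PCNA, TYMS, CLSPN, RRM2 and DTL as the score, licensing was at 0.78, DNA repair at 0.70 and the G2/M list at -0.52, and the signs of H2AFX (0.040), IFI27 (0.079), B2M (0.075), HLA-C (0.019), CD74 (0.32) and PMAIP1 (0.17) turned. With the other 5 score genes histones were at 0.47 and SAA1 turned to -0.14. The fork list was at 0.78 with the top 5%. The G2/M list was at -0.26 without low-score cells of high G2/M level, which that same list chose. With the stricter cell filter, G1/S regulators were at 0.032, CDK4 turned to -0.0032 and ISG15 to 0.34. By construction the median, highest and lowest shares moved to 5.25%, 9.43% and 0% with the top 5% and to 22.2%, 31.2% and 2.59% with the top 20%; the lowest was 0% with the stricter filter. With levels of low-score cells on the x axis, the NF-kB difference had r -0.45 and an adjusted permutation p of 0.0453. The low-score level is also subtracted in that difference, so error in it alone can give a negative r. That form therefore cannot decide the relation. Of 74 called genes among those named, 42 were called under every alternative in which they were compared. Apart from these constructions the causes were not tested. S phase cells of a pair in the main test numbered 13 to 48, which limits genes of low counts.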
